A study of Mus musculus with 16 samples.

Results

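The regions described here are the stretches of the mouse genome in which R-loops called in Xpo4 knockout (KO) cells lay closest together. Peaks of the 2 KO libraries made without RNase R were merged into regions, chromosomes 1 to 19 were cut into windows of 200 kb, and the windows with at least 15 merged regions that started at 4 Mb or beyond were kept. This gave 77 dense windows of 11945, or 0.645%. They held 1390 of the 42250 merged KO regions (3.29%) and, over the 8 peak lists of the study, 2870 of the 77297 deposited peaks. The windows were therefore selected on the number of KO RNase R- peaks, and all counts from those 2 lists are given as a description, without a test.

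The study used S9.6 DNA:RNA hybrid immunoprecipitation and sequencing (DRIP-seq) in NIH/3T3, an immortalized line of mouse embryo fibroblasts. The cells were either wild type (WT) or a KO line made by CRISPR-Cas9, in which Xpo4 was edited in the same way on both copies. Xpo4 encodes exportin 4, which carries cargo out of the nucleus. DNA of both genotypes was digested with 4 restriction enzymes (AluI, DdeI, MboI and MseI). Before the pull-down it was kept in buffer only (RNase R-) or treated with RNase R (RNase R+), an enzyme that removes linear but not circular RNA. Each of the 4 groups (KO RNase R-, KO RNase R+, WT RNase R- and WT RNase R+) had 2 libraries. The labels do not say whether replicates came from separate cultures, so the spread given here is that between libraries. The deposited lists hold no read counts, so no depth could be computed from them. The WT lists were short, with 3885 and 2171 peaks in RNase R- and 271 and 352 in RNase R+, against 26219 and 32031 in KO RNase R-. The lack of a WT peak in a gene is to be read with this. By the read numbers that the study states, uniquely mapped pull-down reads were fewest in WT RNase R-, those of WT RNase R+ lay on both sides of those of KO RNase R+, and the input libraries of WT had fewer than those of KO. Peaks do not measure expression, so neither the loss of Xpo4 nor the cell type could be checked in them. The level that the peak caller expected by chance was higher in every KO library (0.843 to 0.924 fragments per position at the lowest) than in every WT library (0.354 to 0.558), so that genotype and background level cannot be told apart in any count below.

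An R-loop is a hybrid of RNA with 1 strand of DNA that leaves the other strand single. R-loops form where RNA is made, often at promoters rich in CpG and at genes that are transcribed strongly, and genes of this kind lie close together in GC-rich parts of mammalian chromosomes. Small structural RNAs are a second source of dense transcription. The 4.5S RNA of rodents and 5S ribosomal RNA (rRNA) are made by RNA polymerase III, U2 small nuclear RNA (snRNA) is a part of the spliceosome, and the genes of all of them stand in arrays of near-identical copies.

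The gene copies in the dense arrays are shown first, because their sequences repeat within a window. All are from build GRCm38 and read in the direction of the gene, with the bases that lay inside a merged KO region in capitals. Rn4.5s, a 4.5S RNA gene, is at chr6:47654921-47655094 on the minus strand. The gene n-R5s101, of 5S rRNA, is at chr8:123540493-123540611 on the minus strand, and Rnu2-10, of U2 snRNA, is at chr11:101658238-101658428 on the plus strand.
Rn4.5s: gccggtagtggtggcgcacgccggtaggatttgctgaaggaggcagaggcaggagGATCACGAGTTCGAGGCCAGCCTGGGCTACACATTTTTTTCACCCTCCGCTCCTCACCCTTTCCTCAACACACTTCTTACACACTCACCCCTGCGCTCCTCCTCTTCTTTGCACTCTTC
n-R5s101: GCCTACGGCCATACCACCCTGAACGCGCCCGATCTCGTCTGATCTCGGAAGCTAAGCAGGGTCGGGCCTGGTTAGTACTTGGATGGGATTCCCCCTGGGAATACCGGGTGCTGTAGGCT
Rnu2-10: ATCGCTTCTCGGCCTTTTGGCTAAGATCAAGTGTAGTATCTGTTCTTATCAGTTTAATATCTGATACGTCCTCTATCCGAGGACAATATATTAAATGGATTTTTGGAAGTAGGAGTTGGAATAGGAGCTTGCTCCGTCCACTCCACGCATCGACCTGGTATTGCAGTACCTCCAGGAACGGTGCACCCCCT
Of the 174 bases of Rn4.5s, 119 at the 3′ end of the gene were inside the region, whereas the 119 bases of n-R5s101 and the 191 bases of Rnu2-10 were inside in full. The gene n-R5s101 was picked for its long overlap, and its region was called in KO RNase R- replicate 2 only. Both WT RNase R- libraries also had a peak on it, and no KO RNase R+ library did.

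The 77 windows were spread over 13 of the 19 chromosomes. Chromosome 19 had the highest share of dense windows, with 8 of 288 (2.78%), followed by chromosome 7 with 12 of 708 (1.70%). Neighbouring dense windows joined into 66 stretches, of which 8 were longer than 1 window. The longest stretch covered 4 windows at 5.0 to 5.8 Mb of chromosome 19, and 3 adjoining windows lay at 124.6 to 125.2 Mb of chromosome 6. Most windows were near the threshold. Exactly 15 merged regions were found in 21 windows, while 24 windows had 14 and fell just outside. With the peaks of KO RNase R- replicate 1 alone or replicate 2 alone, 15 and 29 windows reached the threshold. The highest count was 41, at chr6:47600001-47800000, followed by 31 at 35.8 Mb of chromosome 17 and at 5.6 Mb of chromosome 19.

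The dense windows were of 2 kinds. In 4 of them, more than 50% of the merged KO regions matched another region of the same window, at an identity of at least 90% over at least 50% of their length. These windows of tandem copies, 2 on chromosome 6 and 2 on chromosome 8, held 113 merged regions. In the other 73 windows, 59 of 1277 regions had such a match.

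The densest window, on chromosome 6, holds the array of 4.5S RNA genes. A search with the Rn4.5s sequence found 17 copies, of which 11 were identical to it over their whole length. The copies were a median of 4338 bp apart, with 1 distance of 54596 bp where the assembly has 50000 unknown bases. Of the 41 merged KO regions, 35 matched another region of the window, and 18 of these were identical to their best match over the part aligned. The number of peaks in this window was 36 and 35 in the KO RNase R- libraries, 31 and 27 in KO RNase R+, 27 and 28 in WT RNase R-, and 16 and 17 in WT RNase R+. The window thus had many peaks in every library, and the counts of KO RNase R+ and WT RNase R- overlapped. The highest fold enrichment there was 23.8 and 24.1 in KO RNase R-, 14.8 and 16.9 in KO RNase R+, 16.3 and 10.2 in WT RNase R-, and 9.43 and 9.01 in WT RNase R+. Fold enrichment is the summit height over the level the caller expected at that place.

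Peaks lay along most of the array in every library. A peak was found within 1 kb of 16 and 17 of the 17 copies in KO RNase R-, 16 and 15 in KO RNase R+, 17 and 17 in WT RNase R-, and 12 and 13 in WT RNase R+. The number of copies that a peak overlapped was 11 and 13, 10 and 12, 12 and 7, and 3 and 2 for the same groups in the same order. Summits within the 174 bases of a copy numbered 0 and 2 in KO RNase R- and 1 to 5 in each of the other 6 libraries. In the 500 bp before the gene, summits numbered 7 and 5 in KO RNase R-, 5 and 5 in KO RNase R+, 6 and 5 in WT RNase R-, and 1 and 0 in WT RNase R+. In the 1000 bp past the gene end they numbered 11 and 13, 11 and 11, 7 and 10, and 10 and 9, of 36 and 35, 31 and 27, 27 and 28, and 16 and 17 in the window. The median position of these downstream summits, counted from the gene start, was 566 and 594 bp in KO RNase R-, 557 and 559 bp in KO RNase R+, 747 and 763 bp in WT RNase R-, and 906 and 891 bp in WT RNase R+. The medians of the 4 KO libraries thus lay below those of the 4 WT libraries. This was noticed after the values were seen and was not tested, and the copies are too alike for their summits to be independent.

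**Figure D1:**
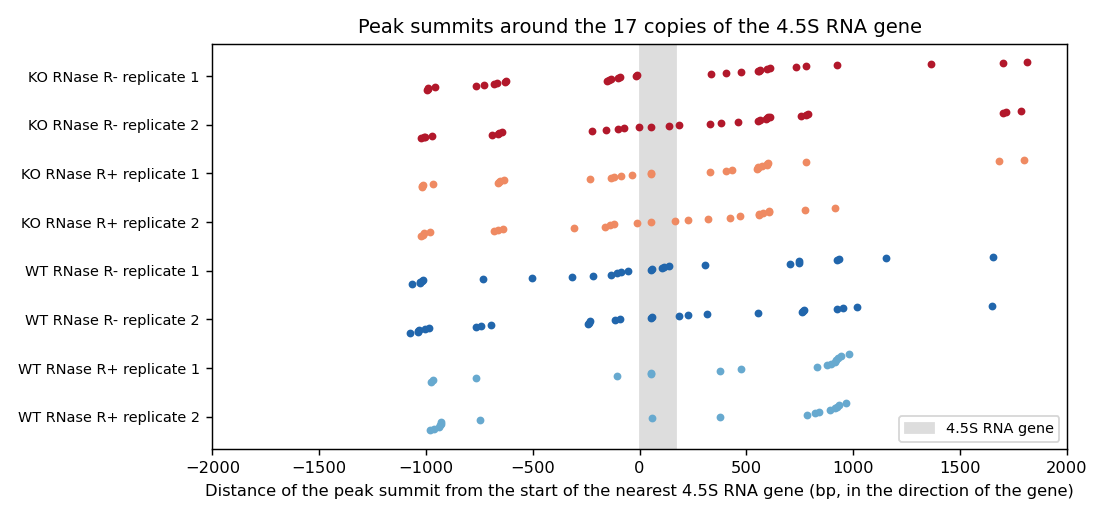
Distance in bp of each peak summit from the start of the nearest 4.5S RNA gene, counted in the direction of the gene, for the 8 libraries (1 point for each summit within 2000 bp; grey, the 174 bp gene). Past the gene end, the median summit lay at 557 to 594 bp in the KO libraries and at 747 to 906 bp in the WT libraries, and in the 500 bp before the gene WT RNase R+ had 1 and 0 summits.

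The window at chr8:123400001-123600000 holds an array of 5S rRNA genes in its last part. There are 37 annotated 5S genes, from 123538786 to 123599979 and a median of 1696 bp apart, and 20 of them share 1 sequence. A merged KO region overlapped 14 of the 37. By library, the number of 5S genes overlapped by a peak was 7 and 12 in KO RNase R-, 7 and 8 in KO RNase R+, 7 and 4 in WT RNase R-, and 0 and 0 in WT RNase R+. The KO RNase R-, KO RNase R+ and WT RNase R- values overlapped, while WT RNase R+ had no peak anywhere in this window.

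The window at 114.4 Mb of chromosome 6 (chr6:114400001-114600000) had 28 merged regions, and every one of them matched another, at a median identity of 98.0%. Their starts were a median of 2466 bp apart and ran from 114496568 to the end of the window. The only annotated gene in the window was Hrh1, the histamine receptor H1 gene, and no merged region overlapped it. The peaks numbered 23 and 20 in KO RNase R-, 15 and 10 in KO RNase R+, 4 and 4 in WT RNase R-, and 0 and 0 in WT RNase R+. Each step down in this order was a separate range.

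On chromosome 8, the window at 20.4 Mb (chr8:20400001-20600000) had 24 merged regions, 17 of them with a match. The genes with the most regions were the pseudogenes 2610005L07Rik and Gm21092 and the long noncoding RNA Gm26804, each with 4. Peaks numbered 23 and 18 in KO RNase R-, 21 and 15 in KO RNase R+, 11 and 10 in WT RNase R-, and 0 and 0 in WT RNase R+. The adjoining window at 20.2 Mb, which was not among the 4 by its own matches, had 16 of 18 regions that matched sequence in the 20.4 Mb window. Its peaks numbered 18 and 16, 15 and 12, 7 and 7, and 0 and 0 in the same order. The KO counts with and without RNase R overlapped in the first window only, and the WT counts were lower than both in either window.

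Smaller repeated families were found in windows that did not pass the criterion for tandem copies. At 101.6 Mb of chromosome 11 lay 5 copies of the U2 sequence, each of 191 bases, with an identity of 99.5% to 100% to Rnu2-10. A peak overlapped 2 of the 5 in each of the KO libraries, 3 in WT RNase R- replicate 1, and none in WT RNase R- replicate 2 or WT RNase R+. At Rnu2-10 itself the fold enrichment was 9.41 in KO RNase R- replicate 2, 7.68 and 8.99 in KO RNase R+ and 8.79 in WT RNase R- replicate 1, with no peak in the other 4 libraries. At 54.6 Mb of chromosome 12, peaks overlapped 4 and 4 of 7 snRNA genes in KO RNase R-, 1 and 3 in KO RNase R+, and none in WT. At 112.6 Mb of the same chromosome 7 of 19 regions matched one another, and 8 regions overlapped Ahnak2, a gene with a long internally repeated coding exon.

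The level that the caller expected was higher in the tandem windows in all 8 libraries. At the peaks of these windows its median was 4.80 and 5.02 fragments in KO RNase R-, 4.93 and 4.91 in KO RNase R+, 3.72 and 4.81 in WT RNase R-, and 5.78 and 4.87 in WT RNase R+. At the peaks of the other dense windows it was 0.941 and 0.982, 1.13 and 1.13, 0.479 and 0.633, and 1.70 and 3.59, the last of these from 2 peaks and 1 peak. The authors removed reads without a unique position, and reads from identical copies cannot be assigned to 1 of them. The part of this in the number of peaks was not tested.

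The share of a list's peaks that started in the dense windows was then compared between the groups whose libraries the rule had not used. KO RNase R+ is of the same cell line as the libraries that chose the windows. It was 5.52% (95% Wilson interval 4.98 to 6.12) and 4.28% (3.78 to 4.83) in KO RNase R+, 2.73% (2.25 to 3.30) and 3.98% (3.21 to 4.92) in WT RNase R-, and 7.66% (4.90 to 11.8) and 5.79% (3.69 to 8.96) in WT RNase R+. In KO RNase R-, which chose the windows, it was 3.73% and 3.66%. These intervals cover counting error only. The numbers behind these shares were 337 and 246 peaks, 101 and 81, 18 and 18, and 942 and 1127. WT RNase R+ thus had the fewest peaks in these windows and the highest shares, and the shares of both replicates lay above those of WT RNase R- and KO RNase R+.

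The difference of the group means between WT RNase R+ (6.72% ± 1.32, SD, n = 2) and WT RNase R- (3.35% ± 0.883, SD, n = 2) was 3.37 percentage points, with p = 0.3333 in an exact permutation test (two-sided). KO RNase R+ (4.90% ± 0.880, SD, n = 2) was 1.82 percentage points below WT RNase R+, since the coded difference was -1.82, again with p = 0.3333 (exact permutation test, two-sided). Since peaks of the KO line chose the windows, the second comparison is not independent of the rule, and its p is given as a description only. With 2 libraries against 2, 0.33 is the smallest p that this test can give. The Benjamini-Hochberg adjusted value over the 5 tests made was 0.3333 for both. Both differences turned without the 4 tandem windows, to -0.87 and 3.18 percentage points, and without the 4.5S window alone, to -1.72 and 3.82. WT RNase R+ was then left with 2 peaks and 1 peak.

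The dependence on the tandem windows differed between the lists. Of the dense-window peaks, 9.77% and 7.99% lay in the 4 tandem windows in KO RNase R-, 22.0% and 24.8% in KO RNase R+, 54.5% and 58.0% in WT RNase R-, and 88.9% and 94.4% in WT RNase R+. In number these were 92 and 90, 74 and 61, 55 and 47, and 16 and 17 peaks. Each list's tandem-window peaks were 0.364% and 0.292%, 1.21% and 1.06%, 1.49% and 2.31%, and 6.81% and 5.47% of all its peaks in the windows examined. The 4 groups did not overlap in any of these 3 measures, which were not tested. All 33 tandem-window peaks of WT RNase R+ were in the 4.5S window.

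**Figure D2:**
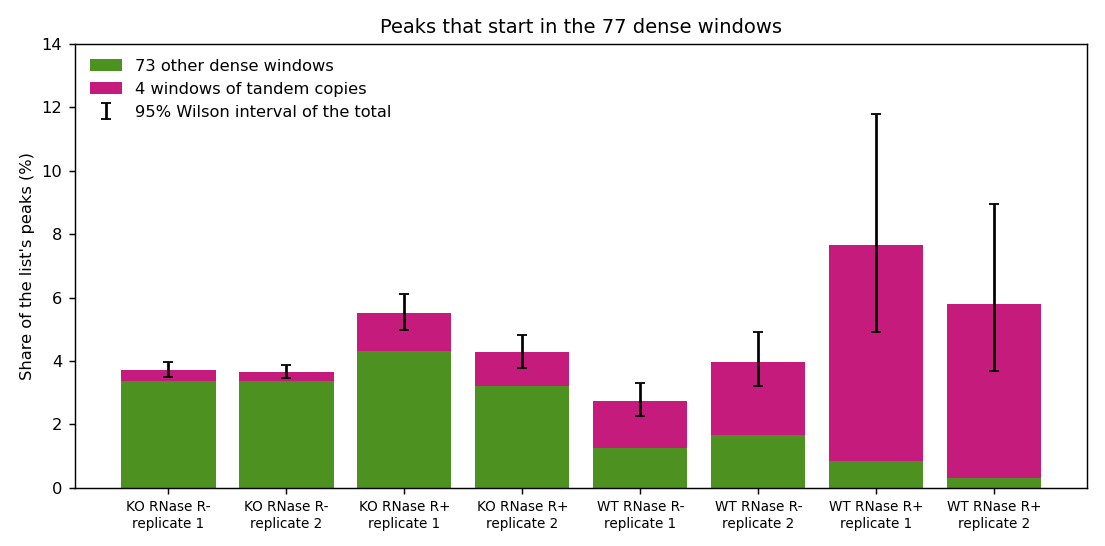
Share in percent of each list's peaks that started in the 77 dense windows, split into the 4 windows of tandem copies and the other 73 (bars; error bars, 95% Wilson interval of the total). The tandem part grew from 0.292% of the peaks in KO RNase R- replicate 2 to 6.81% in WT RNase R+ replicate 1, while the rest fell from 4.31% in KO RNase R+ replicate 1 to 0.322% in WT RNase R+ replicate 2.

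In the 73 other windows the shares were higher in KO than in WT. They were 3.37% and 3.37% in KO RNase R-, 4.31% and 3.22% in KO RNase R+, 1.24% and 1.67% in WT RNase R-, and 0.851% and 0.322% in WT RNase R+. The KO values with and without RNase R overlapped, and all 4 of them lay above all 4 WT values. The difference between genotypes is a description both with and without RNase R, since peaks of the KO line chose the windows. The WT RNase R+ shares rest on 2 peaks and 1 peak. The 73 windows include that at 20.2 Mb of chromosome 8, most of whose regions matched the adjoining tandem window. It held 7 and 7 of the 46 and 34 WT RNase R- peaks, and 15 and 12 of the 263 and 185 KO RNase R+ peaks.

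Of the 77 dense windows, 76 had a KO RNase R+ peak in at least 1 replicate, against 49.3% of all windows, and 67 had one in both, against 20.8%. A WT RNase R- peak was found in 44 dense windows (31.4% of all windows) and in both replicates in 19 (7.17%). For WT RNase R+ the numbers were 3 (2.59%) and 2 (0.946%), which are few for a comparison with the background. The 3 windows with a WT RNase R+ peak were the 4.5S window, the U2 window at 101.6 Mb of chromosome 11, with 1 peak in each replicate, and the window at 132.0 Mb of chromosome 1, with 1 peak in replicate 1. Without the 4 tandem windows, 72, 63, 40, 15, 2 and 1 of 73 windows had a peak in the same order.

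**Figure D3:**
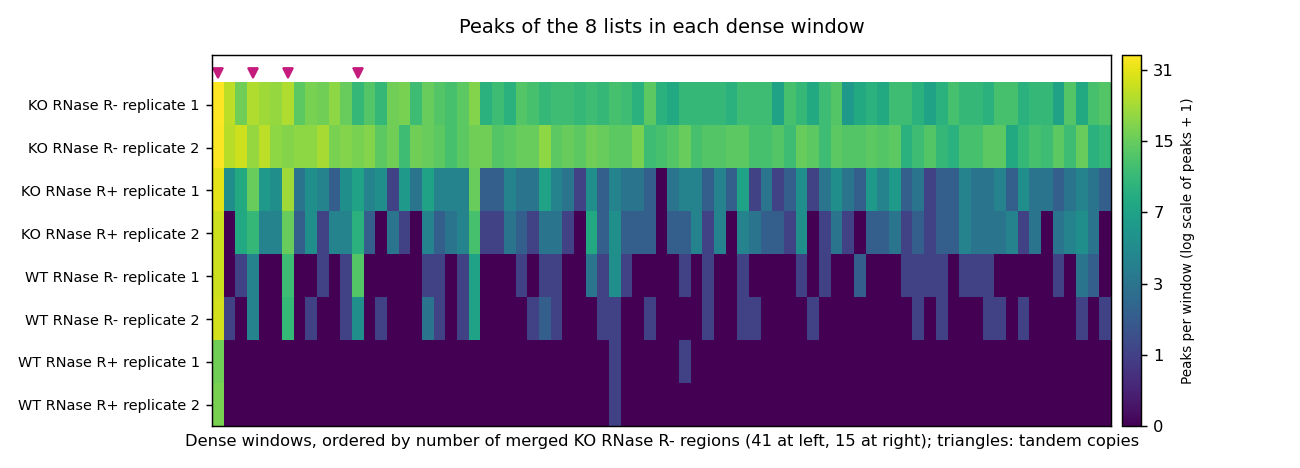
Number of peaks (colour, log scale of peaks + 1) of the 8 lists (rows) in each of the 77 dense windows (columns), ordered from 41 merged KO RNase R- regions at the left to 15 at the right, with triangles above the 4 tandem windows. KO RNase R+ peaks were found in 76 of the windows, WT RNase R- peaks in 44, and WT RNase R+ peaks in 3.

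Merged KO regions of the dense windows recurred in other lists. A peak of both KO RNase R- replicates was present in 647 of 1390 regions (46.5%), compared with 32.4% over all windows. A KO RNase R+ region overlapped 346 of them (24.9%), compared with 14.7%. Of the 133 merged WT RNase R- regions in these windows, 92 overlapped a KO region (69.2%; 95% Wilson interval 60.9 to 76.4), compared with 42.3%. Without the tandem windows the shares were 45.3%, 21.5% and 60.0%. Since KO regions chose the windows, all of these shares are descriptions.

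The dense windows were rich in genes. The median window overlapped 15 genes, compared with 4 over all windows, and held the starts of 8 protein-coding genes, compared with 1. Median GC content was 48.7% against 41.5%, and the number of CpG per kb was 15.8 against 7.87. The number of genes was above the 90th percentile of all windows in 54 of the 77, and GC content in 50 of the 74 windows whose sequence was known over at least 90% of their length. The 336 windows with 10 to 14 merged regions were intermediate, with 9.5 genes and 46.8% GC. The share of soft-masked repeats (29.7% against 31.6%) and the number of sites of the 4 restriction enzymes per kb (18.3 against 18.4) were close to those of all windows. The merged regions themselves had a median GC content of 50.4% in the non-tandem dense windows and 54.5% in the tandem windows, compared with 42.6% for all merged KO regions.

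**Figure D4:**
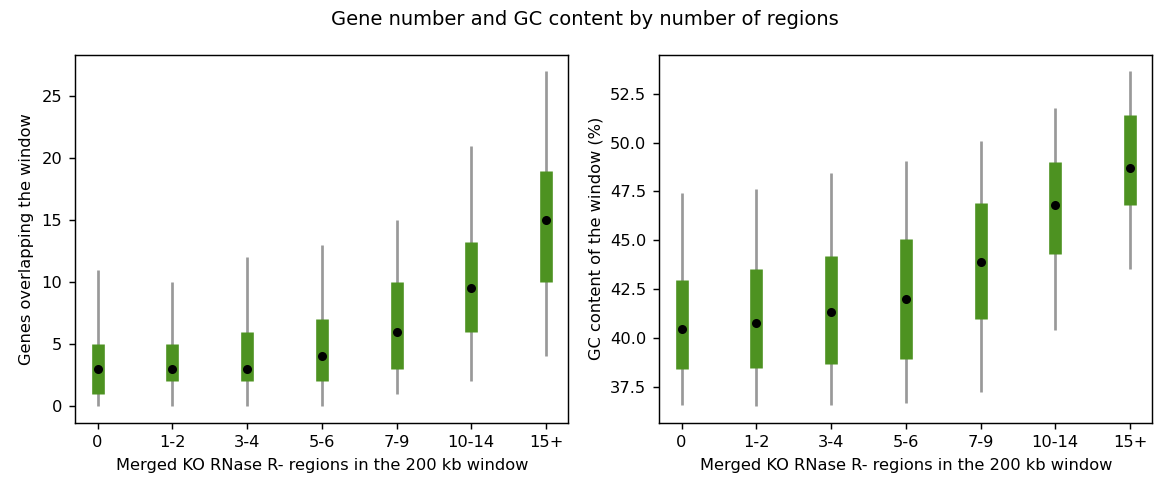
Number of genes overlapping a 200 kb window (left) and its GC content in percent (right) by the number of merged KO RNase R- regions in it (points, median; boxes, 25th to 75th percentile; lines, 5th to 95th percentile). The median rose from 3 genes and 40.5% GC in windows without a region to 15 genes and 48.7% GC in the dense windows.

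The exceptions were few. Only 6 of the 77 windows overlapped at most 4 genes, and 1 of these was the tandem window at 114.4 Mb. In 4 of the other 5, whose genes were named after their values were seen, most of the merged regions lay along 1 long gene. At 6.8 Mb of chromosome 15, 17 of 19 regions were in Osmr, the receptor of oncostatin M. At 40.2 Mb of chromosome 1, 14 of 15 were in Il1r1, the interleukin 1 receptor. The hyaluronan-binding protein gene Cemip had 13 of the 21 regions at 84.0 Mb of chromosome 7 and 10 of the 16 regions in the adjoining window. Peaks in Osmr numbered 16 and 10 in KO RNase R-, 6 and 1 in KO RNase R+, and 0 in each WT library. In Il1r1 the counts were 9 and 13, 6 and 2, and 0 in WT. Cemip had 1 WT peak, of 6.73-fold in WT RNase R- replicate 2. At 58.4 Mb of chromosome 4, 11 of 17 regions were in Lpar1, a receptor of lysophosphatidic acid. It had 7 and 8 peaks in KO RNase R-, 0 and 1 in KO RNase R+, 1 and 0 in WT RNase R- (5.10-fold) and none in WT RNase R+.

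Peaks of the dense windows were often at promoters, taken as the 1000 bp on either side of a transcript start. The promoter share was 30.7% and 29.5% in KO RNase R- against 9.88% and 9.70% in the other windows, and 29.4% and 32.5% in KO RNase R+ against 12.5% and 10.1%. In WT RNase R- it was 19.8% and 16.0% against 6.17% and 7.37%. In WT RNase R+ no peak of the dense windows was at a promoter (0 of 18 in each replicate, which allows a share of up to 16.7%), against 5.53% and 4.78% in the other windows. The share was higher in the dense windows in 4 of the 6 libraries not used by the rule, with a mean difference of 8.55 percentage points and p = 0.1562 in an exact sign-flip permutation test (two-sided; adjusted p = 0.3333). The others were the WT RNase R+ libraries, to which this limit of the annotation applies, so the mean difference and p depend on it. Against windows with 10 to 14 merged regions the mean difference was -2.17 percentage points, again with the WT RNase R+ libraries included. Without the tandem windows the promoter share was 35.0% and 38.4% in KO RNase R+ and 15.2% and 23.5% in WT RNase R-. In exons, shares in the dense windows were 12.6% and 13.1% in KO RNase R- and 11.9% and 10.2% in KO RNase R+, against 3.598% and 3.47%, and 4.04% and 3.27%, in the other windows. In WT RNase R- they were 0.990% and 0 of 81 peaks, which allows up to 3.70%, against 1.19% and 1.23% in the other windows.

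**Figure D5:**
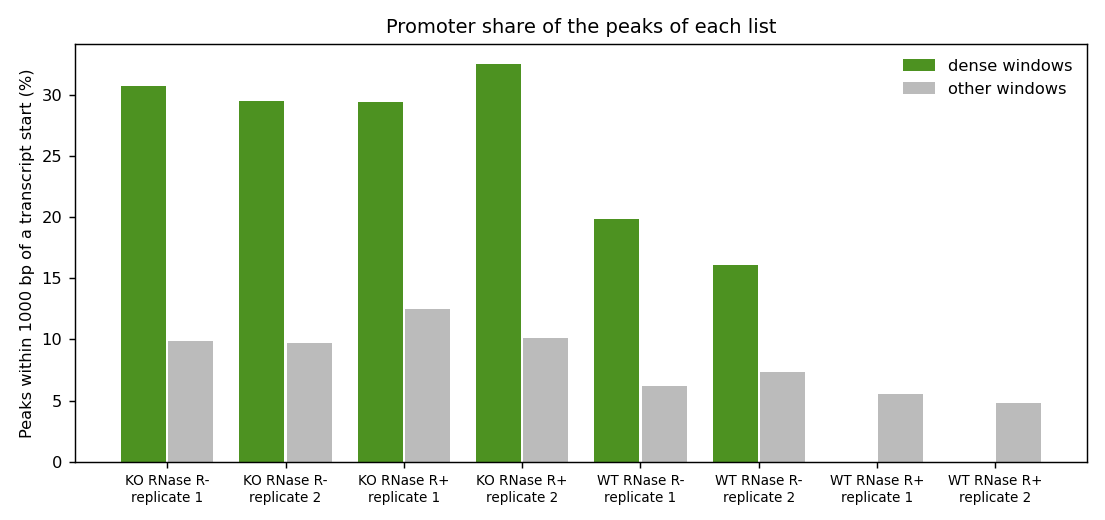
Share in percent of each list's peaks whose summit was within 1000 bp of a transcript start, in the dense windows and in the other windows. The share in the dense windows was 29.4% to 32.5% in the 4 KO libraries, 16.0% and 19.8% in WT RNase R- and 0% in WT RNase R+.

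Counted by gene, 703 protein-coding genes started in the dense windows. A KO RNase R- summit was within 1000 bp of the start of 143 of them (20.3%), compared with 6.55% of all 20603 protein-coding genes. For KO RNase R+ the number was 39 (5.55%, compared with 1.69%), for WT RNase R- 4 (0.569%, compared with 0.282%), and for WT RNase R+ 0 of 703, which allows up to 0.427%, compared with 0.0146%. A merged KO region overlapped 427 of the 703 (60.7%, compared with 41.8%). With all gene types included, 519 of 1097 genes were overlapped (47.3%, compared with 22.5%) and 237 had a KO RNase R- summit at their start (21.6%, compared with 5.63%). The KO RNase R- counts follow from the choice of the windows.

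In the 10 densest windows, 5 promoters of the RefSeq table for GRCm38.p6 (250 bases before to 50 after a listed start) held a summit of both KO RNase R- replicates. A listed start can lie inside its gene, so such a stretch is not always that before the first base of the gene. The 3 with the highest fold enrichment in their lower replicate are shown, in the direction of the gene and with CpG in capitals, because they are the stretches of gene-dense windows on which both replicates placed a summit. Cpt1c encodes a brain form of carnitine palmitoyltransferase (chr7:44974802-44975101, minus strand), Prr3 a proline-rich protein (chr17:35978949-35979248, minus strand), and Rras a small GTPase of the Ras family (chr7:45017692-45017991, plus strand).
Cpt1c: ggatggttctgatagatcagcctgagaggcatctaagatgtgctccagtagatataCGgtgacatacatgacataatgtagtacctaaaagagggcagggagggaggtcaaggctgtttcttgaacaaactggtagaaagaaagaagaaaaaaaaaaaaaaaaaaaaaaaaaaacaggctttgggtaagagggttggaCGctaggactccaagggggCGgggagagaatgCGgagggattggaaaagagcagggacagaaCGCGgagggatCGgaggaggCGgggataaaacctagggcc
Prr3: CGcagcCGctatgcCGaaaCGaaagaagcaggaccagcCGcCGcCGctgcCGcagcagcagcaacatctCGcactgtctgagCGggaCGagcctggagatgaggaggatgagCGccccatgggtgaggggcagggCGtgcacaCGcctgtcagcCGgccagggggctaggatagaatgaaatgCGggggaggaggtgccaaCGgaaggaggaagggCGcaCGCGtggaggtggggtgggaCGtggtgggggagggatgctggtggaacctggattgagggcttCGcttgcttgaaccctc
Rras: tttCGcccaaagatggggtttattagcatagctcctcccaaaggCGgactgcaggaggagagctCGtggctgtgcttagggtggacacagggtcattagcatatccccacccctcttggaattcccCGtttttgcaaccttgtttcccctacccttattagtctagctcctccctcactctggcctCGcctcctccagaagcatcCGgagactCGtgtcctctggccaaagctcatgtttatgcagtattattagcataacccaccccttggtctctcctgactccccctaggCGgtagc
The fold enrichment at these summits was 9.10 and 10.5 for Cpt1c, 6.60 and 9.75 for Prr3, and 6.36 and 7.91 for Rras. The 300 bases held 8, 22 and 8 CpG, against a median of 7 over the 31396 promoters of the table. The other promoters were those of Kat5 and Ubtf. Both of these stretches lay inside their genes, which are on the minus strand. The Kat5 stretch was chr19:5609695-5609994, with the gene beginning at 5610237. The Ubtf stretch was chr11:102317238-102317537, with the gene beginning at 102319742. The place of the listed Prr3 start within its gene was not checked. Its stretch may hold bases past the gene start, so its 22 CpG need not be those of sequence before the gene.

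The stretch at 5.0 to 5.8 Mb of chromosome 19 had 88 merged KO regions and 46 protein-coding gene starts. Peaks over the 4 windows numbered 51 and 78 in KO RNase R-, 22 and 16 in KO RNase R+, 4 and 3 in WT RNase R-, and 0 and 0 in WT RNase R+. In the window at 5.4 Mb, Fosl1, which encodes a subunit of the AP-1 transcription factor, had 5 regions, and Mus81, the gene of a structure-specific endonuclease, had 3. Fosl1 peaks numbered 4 and 4 in KO RNase R- and 3 and 1 in KO RNase R+, with a highest fold enrichment of 9.77, 20.04, 7.28 and 8.99. The region of the highest fold also overlapped Ccdc85b, which lies across the 3′ end of Fosl1 on the other strand, and the lists carry no strand. Mus81 had 2 and 3 peaks without and 1 and 1 peaks with RNase R, at up to 15.2-fold. None of these genes had a peak in a WT list.

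In the window at 5.6 Mb, the endocytic protein gene Ehbp1l1 had 6 regions and Kat5, the gene of the histone acetyltransferase TIP60, had 4. Ehbp1l1 had 5 and 5 peaks in KO RNase R- and 2 and 3 in KO RNase R+, at up to 13.2-fold. Kat5 had 3 and 3 peaks in KO RNase R- and none in another list. The highest fold enrichment of any dense window was also here, at Malat1, a nuclear long noncoding RNA, which was named after its value was seen. It was 173 and 178 in KO RNase R-, 93.0 and 63.6 in KO RNase R+, and no WT list had a peak there. Malat1 carried only 2 of the 31 merged regions of its window.

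At 45 Mb of chromosome 7, 28 merged regions lay in a window of 29 genes. The antisense model Gm45669, which overlaps Rcn3 and Fcgrt, had 4 regions, and no other gene had more than 3. The genes with 3 were Rcn3, which encodes a calcium-binding protein of the endoplasmic reticulum, Fcgrt, the neonatal Fc receptor, and Prr12, which encodes a proline-rich protein. In KO RNase R- the peaks numbered 3 and 3 in Rcn3, 3 and 3 in Fcgrt and 2 and 2 in Prr12. KO RNase R+ replicate 1 had 2 peaks in Rcn3, at up to 13.5-fold, and no other peak was called in these genes. In the adjoining window at 44.8 Mb, the transcription factor gene Atf5 had 3 regions, with 3 and 3 peaks in KO RNase R- and 1 and 1 in KO RNase R+. Il4i1, the gene of an amino acid oxidase, had 4 regions, and Ptov1 had 3, at up to 22.8-fold.

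The other gene-rich windows among the 10 densest showed the same spread of regions over several genes. At 35.8 Mb of chromosome 17, Flot1, which encodes a scaffold protein of membrane microdomains, had 4 regions, and the DNA damage mediator gene Mdc1 and the antisense RNA Ppp1r18os had 3 each. At 102.2 Mb of chromosome 11, Ubtf, the gene of the RNA polymerase I transcription factor UBF, had 9 of the 23 regions. Ubtf peaks numbered 6 and 9 in KO RNase R-, 2 and 2 in KO RNase R+ and 0 in each WT library, at up to 11.6-fold. Its neighbours Atxn7l3 and Tmub2 had 2 regions each. At 8.8 Mb of chromosome 19, the translation elongation factor gene Eef1g had 4 regions, with a highest fold enrichment of 23.8 and 25.5 in KO RNase R- and 13.0 and 9.25 in KO RNase R+. Hnrnpul2 and the overlapping model AC129217.1 had 2 regions each. None of the named genes of these 3 windows had a peak in a WT list.

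Among the other dense windows, a few genes with many regions or a high fold enrichment are given here as examples. They were chosen after their values were seen. Plec, which encodes the cytoskeletal linker plectin, had 8 regions at 76.0 Mb of chromosome 15, with 6 and 9 peaks in KO RNase R-, 4 and 4 in KO RNase R+ and 0 in each WT library. Pdgfra, the platelet-derived growth factor receptor of mesenchymal cells, had 8 regions in a window of chromosome 5, with 8 and 4, 1 and 2, and 0 peaks. Eif4g1, the gene of a scaffold of translation initiation, had 9 regions at 20.6 Mb of chromosome 16, with 6 and 7, 3 and 2, and 0 peaks. The KO RNase R+ lists were shorter as a whole, with 6372 and 5996 peaks against 26219 and 32031 in KO RNase R-.

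Other genes had fewer regions and are given by their highest fold enrichment. Eif4a1, which encodes a translation initiation helicase, had 2 regions, and its highest fold enrichment was 66.7 and 52.3 in KO RNase R- and 25.1 and 17.1 in KO RNase R+. Gapdh, a glycolytic enzyme, also had 2, at 22.3 and 37.97 in KO RNase R- and 11.96 in KO RNase R+ replicate 1, with no peak in KO RNase R+ replicate 2. The amino acid transporter gene Slc38a2 had 4, at 35.9 and 24.4 without and 8.61 and 9.47 with RNase R. Actb, the gene of beta-actin, had 3 regions, at 24.2 and 13.1 in KO RNase R- and in no other list. No WT list had a peak in any of these 4 genes. WT summits were rare at gene starts, at 0.282% of all protein-coding genes in WT RNase R- and 0.0146% in WT RNase R+. The share of genes with a WT peak anywhere in them was not counted. The lack of a WT peak is therefore not given as particular to the genes named here.

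Gene families differed in how many members lay in the dense windows, which took in 1097 of 50657 genes (2.17%). The rRNA genes had the largest share, with 38 of 318 (11.9%), of which 14 overlapped a merged KO region. All but 1 of the 38 were the 5S genes of the window at 123.4 Mb of chromosome 8. Of 80 cytosolic ribosomal protein genes 4 were present, and all 4 overlapped a KO region. Of all genes in the dense windows 47.3% overlapped one, and of the protein-coding genes 60.7%. Both collagen genes present, Col8a2 and Col11a2, of 43, and 4 of 6 zinc finger genes, of 409, overlapped a KO region, as did 0 of 3 proteasome genes (Psmb8, Psmb9 and Psmd2), of 39. These numbers are too small to set against the 60.7%. No member of the histone (78 genes), Hox (45), olfactory and vomeronasal receptor (1453), keratin (113), protocadherin (67) or small nucleolar RNA host (15) lists lay in a dense window. Among noncoding genes, 32 of 1283 snRNA, 63 of 2021 microRNA, 21 of 1433 small nucleolar RNA, 32 of 5166 lincRNA and 68 of 2885 antisense genes were present, and 11 (34.4%), 9 (14.3%), 4 (19.05%), 13 (40.6%) and 25 (36.8%) of these overlapped a KO region. Over all windows the shares of these classes were 8.96%, 2.18%, 2.58%, 22.2% and 19.4%. Each class thus had a higher share in the dense windows, as had all genes (47.3%, compared with 22.5%). These differences follow from the choice of the windows.

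In these lists, 48 gene entries overlapped a peak of a library that the rule had not used. Fold enrichments in such libraries included 11.9 at Gm26804, 10.7 at the 5S gene n-R5s105, 10.2 at the lincRNA 5430431A17Rik, 10.2 at the snRNA gene Gm26243, 9.88 at the lincRNA Gm20045 and at the U2 gene Gm24950, and 9.17 at the lincRNA Gm44993. All but the last were in KO RNase R+. Gm26243 had no KO RNase R- region, while 5430431A17Rik had 7 and also 3 peaks in WT RNase R- replicate 1.

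Peaks in the dense windows were wider than elsewhere. The median width was 311 and 322 bp in KO RNase R- against 247 and 254 bp, 338 and 339 bp in KO RNase R+ against 281 and 277 bp, and 365 and 362 bp in WT RNase R- against 300.0 and 294 bp. In WT RNase R+ it was 479 against 421 bp in replicate 1 and 389 against 435 bp in replicate 2. Among the 6 libraries not used by the rule it was higher in 5, with a mean difference of 43.8 bp (p = 0.0625, exact sign-flip permutation test, two-sided; adjusted p = 0.3125).

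The median fold enrichment differed little in KO, at 7.28 and 7.17 in KO RNase R+ against 6.76 and 6.88 in the other windows, and at 7.05 and 7.00 against 6.94 and 6.86 in KO RNase R-. It was lower in the dense windows in WT, at 6.22 and 6.48 against 6.56 and 6.88 in WT RNase R- and 5.66 and 5.61 against 8.29 and 7.91 in WT RNase R+. The mean difference over the 6 libraries was -0.81, with p = 0.2812 (exact sign-flip permutation test, two-sided; adjusted p = 0.3333), and 4 of 6 were below 0. It turned to 0.32 without the tandem windows, where the fold was 7.28 and 7.26 in KO RNase R+ and 6.76 and 6.93 in WT RNase R-, and to 0.19 without the 4.5S window. The highest fold enrichment in the dense windows was 173 and 178 in KO RNase R-, 93.0 and 63.6 in KO RNase R+, 16.3 and 13.8 in WT RNase R-, and 9.43 and 9.01 in WT RNase R+, and the 4 groups did not overlap.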

How the data were processed

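Per the labels and the study's methods, paired DRIP-seq reads were aligned to GRCm38 (mm10) with Bowtie2, duplicates, mismatched and non-unique reads were removed with SAMtools 1.1, and the authors called the peaks of each library with MACS2 at a q of 0.001. Which control the caller used is not given in the sources used here. The deposited lists give for each peak a fold enrichment, which is a ratio, and p and q as −log10 values. The deposited score column was not used. Since libraries were called separately, peak numbers depend on depth.

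Peaks of both KO RNase R- lists were merged where they overlapped or touched, and merged regions and peaks were put in 200 kb windows by their start. The members, the gene lists and the tests were chosen with earlier results of these data known. Summit heights and expected levels were recovered from fold and p under a Poisson distribution (26218 of 26219 peaks in KO RNase R- replicate 1), which was tested on simulated data. Genes came from GENCODE M21 for GRCm38. Regions of a window were compared with blastn 2.17.0. Shares have 95% Wilson intervals (scipy 1.17.1). Tests were exact permutation tests over libraries, with Benjamini-Hochberg adjustment over 5 tests. Overlap meant at least 1 bp. Named genes were the up to 3 genes with the most merged regions in each of the 10 densest windows (ties by fold), without Gm, Rik and pseudogene models where another gene was overlapped, and up to 10 genes of the lists by fold in lists the rule did not use. Alternatives were other thresholds, window offsets, peak filters, overlaps, promoter widths and left-out libraries or windows. Some named genes are not reported here.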

Additional observations from a re-analysis of the deposited data

Results flagged for a closer look

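With RNase R, the median fold enrichment of dense-window peaks moved in opposite directions in the genotypes. It was 0.194 higher in KO, where both RNase R+ libraries (7.28 and 7.17) lay above both RNase R- libraries (7.05 and 7.00), and it changed by -0.719 in WT, where both RNase R+ libraries (5.66 and 5.61) lay below both RNase R- libraries (6.22 and 6.48). The difference between genotypes was not tested. Of the 36 WT RNase R+ peaks, 33 were in the 4.5S RNA window, and the WT direction turned without the tandem windows, where the median was 7.66 and 7.19 in WT RNase R+ (2 peaks and 1 peak) against 6.76 and 6.93 in WT RNase R-. In KO it was then 7.28 and 7.26 against 7.05 and 7.08.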

How the results depend on the processing

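The number of dense windows was 198 at a threshold of 12 merged regions and 14 at 20, and 15 to 29 when 1 KO RNase R- replicate was left out. The share of WT RNase R- peaks was 5.98% at 12, 2.01% at 20, 4.25% with a −log10 q of at least 5, 1.46% without tandem windows and 2.30% without the 4.5S window, and 2.07% to 2.64% with 1 KO replicate. The share of KO RNase R+ peaks was 9.04% at 12, 1.82% at 20, 3.66% with a fold of at least 5, 3.76% without tandem windows, and 2.001% to 2.81% with 1 KO replicate. The share of WT RNase R+ peaks was 4.59% with a fold of at least 5, and 0.586% without tandem windows and without the 4.5S window, and 6.14% to 6.35% with 1 KO replicate. Leaving out the 4.5S window was chosen after seeing the data.

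WT RNase R+ against WT RNase R- turned to -0.87 percentage points without tandem windows and -1.72 without the 4.5S window. KO RNase R+ against WT RNase R+ turned to 3.18, 3.82 and, at a threshold of 12, 1.20. Leaving out 1 library gave 2.43 to 4.31 for the first, and -4.14 to -0.89 for the second. The fold difference turned to 0.32 and 0.19 without these windows, and the promoter difference to -2.17 against windows with 10 to 14 regions. With all 8 libraries, the promoter difference was 11.5 percentage points and the width difference 49.3 bp, with p = 0.0391 and 0.0156 before adjustment (exact sign-flip permutation test), but these include the libraries that chose the windows. Leaving out 1 library gave 5.78 to 11.4 percentage points, 39.0 to 61.8 bp and -1.08 to -0.45. With a reciprocal overlap of at least 50%, the shares shared with KO, in both replicates and with RNase R+ were 54.9%, 40.8% and 19.5%. Replicate numbers share only a label here, and the replicate block left the differences at 3.37 and -1.82 with 0.5 as the smallest possible p. The other 69 values counted as unchanged, by a rule that depended on the measure. A share had to stay within the SD between replicates of its reported value. The number of windows had to stay within a set factor, as with 53 and 85 windows against 77. A difference had to keep its direction and, for the within-library differences, its side of the p threshold. Genotype cannot be told apart from background level in these lists, nor from depth in the RNase R- libraries.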
